A study of Mus musculus with 6 samples.

Results

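In all, 10 genes of brown and beige fat were followed in the wound tissues of diabetic mice: 8 grouped as effectors and 2 as regulators of the fat lineage. Effector is a label of the list and does not mean that each of these genes produces heat. The effectors were Ucp1 (ENSMUSG00000031710), Letmd1, Kcnk3, Otop1, Cox8b, Cox7a1, Cidea and Dio2, and the regulators were Prdm16 and Zic1. They are 10 of the 33184 Ensembl gene IDs in the table, matched by mouse symbol, and all 10 had a mean of at least 0.5 FPKM (fragments counted per kilobase of gene and corrected for library depth). The genes were chosen by earlier results on their FPKM difference between these groups, so that difference is described for them without a test.

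The RNA-seq libraries came from skin wounds of db/db mice, a diabetic line. Each wound was a round excision of epidermis and dermis, 6 mm across. Its rim was injected on day 1 after injury (dpi1) with NC siRNA, the control, or with SFRP2 siRNA, and the tissue was frozen at dpi4, although the titles carry day 3. Each group had 3 libraries, NC 1 to 3 and SFRP2-siRNA 1 to 3, and whether each library was 1 animal is not given in the labels, so errors measure the spread between libraries. The treated titles are numbered siRNA-1 to siRNA-3, and whether they differ in siRNA sequence is not stated. The target gene went against its label: Sfrp2 had 22.1 ± 16.1 FPKM in NC and 53.5 ± 2.52 FPKM in the other group (SD, n = 3 each), with an adjusted limma p of 0.518. Directions below are therefore those of the labelled libraries and not of a loss of Sfrp2. No unit of tissue other than the whole wound was measured, so fewer cells of a type and less RNA per cell cannot be told apart. SFRP2-siRNA 1 stood apart from its group, with Spearman's rho across genes of 0.907 and 0.892 to SFRP2-siRNA 2 and 3, against 0.957 to 0.973 for the other pairs within groups. The libraries held 42.9 to 47.1 M mapped reads (M, the prefix mega), with 26081 to 27189 genes above 0. Mitochondrially encoded transcripts made up 17.4% to 35.8% of the summed FPKM in NC, highest in NC 1, and 11.8% to 16.6% in the libraries labelled SFRP2-siRNA.

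Brown and beige adipocytes burn fuel to make heat. UCP1, a carrier of the inner mitochondrial membrane, lets protons return without making ATP, and noradrenaline drives it through beta-adrenergic receptors and cAMP. DIO2 makes active thyroid hormone inside the cell and adds to this drive. PRDM16 directs precursors and white adipocytes to the thermogenic fate, whereas ZIC1 marks classical brown fat rather than beige cells. In mice, skin lies on a layer of fat and a thin muscle sheet.

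Promoters of 4 members are shown. They run from the largest difference described below (Ucp1) to a regulator (Prdm16), with a complex IV subunit (Cox8b) and the deiodinase (Dio2) between them. Zic1, which differed in the other direction, is not among them. Each is the 250 bases before the RefSeq start on GRCm38.p6, written 5′ to 3′ on the strand of the gene. The build behind the FPKM table is not given in the sources used here. Capitals mark the motif letters named after the sequences. Ucp1 lies at chr8:83290098-83290347 (+), Cox8b at chr7:140900447-140900696 (-), Dio2 at chr12:90739039-90739288 (-) and Prdm16 at chr4:154636874-154637123 (-).
Ucp1: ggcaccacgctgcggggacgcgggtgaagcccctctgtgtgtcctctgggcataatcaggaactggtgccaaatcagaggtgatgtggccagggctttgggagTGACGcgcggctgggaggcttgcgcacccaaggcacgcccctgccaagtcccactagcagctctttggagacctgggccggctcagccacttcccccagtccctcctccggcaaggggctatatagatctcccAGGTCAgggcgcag
Cox8b: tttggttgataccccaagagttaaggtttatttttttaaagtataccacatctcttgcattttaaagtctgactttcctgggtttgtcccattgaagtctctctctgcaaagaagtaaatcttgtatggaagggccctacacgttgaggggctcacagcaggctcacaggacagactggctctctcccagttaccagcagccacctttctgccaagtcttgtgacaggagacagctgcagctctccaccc
Dio2: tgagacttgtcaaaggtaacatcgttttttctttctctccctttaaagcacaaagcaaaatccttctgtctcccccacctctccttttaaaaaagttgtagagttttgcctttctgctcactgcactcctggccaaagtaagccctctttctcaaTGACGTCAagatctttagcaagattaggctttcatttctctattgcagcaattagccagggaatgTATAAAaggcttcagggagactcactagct
Prdm16: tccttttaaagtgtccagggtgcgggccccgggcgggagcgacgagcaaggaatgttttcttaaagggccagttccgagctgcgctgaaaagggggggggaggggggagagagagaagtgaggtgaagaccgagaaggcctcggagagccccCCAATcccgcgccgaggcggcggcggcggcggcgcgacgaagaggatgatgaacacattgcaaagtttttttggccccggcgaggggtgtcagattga
In the Ucp1 promoter TGACG, the core of the cAMP response element (CRE), began 147 bases before the start, and AGGTCA, the core bound by many nuclear receptors, began 14 bases before it. The Dio2 promoter held the full element TGACGTCA 95 bases before the start and the TATA box TATAAA at 30 bases. Prdm16 held CCAAT, 98 bases before its start, and Cox8b held none of the letters searched. Both strands were searched, and TGACGTCA contains TGACG. Of all 27025 promoters in the RefSeq table, 17.9% held TGACG, 1.62% TGACGTCA, 13.8% AGGTCA, 13.0% TATAAA and 34.5% CCAAT. Of the 10 members, 8 had an entry. Among them TGACG occurred in Ucp1 and Dio2, AGGTCA in Ucp1 and Letmd1, and CCAAT in Cox7a1, Letmd1, Prdm16 and Zic1. AAGGTCA, the longer form of the nuclear receptor core, stood in 4.05% of all promoters and in 0 of these 8. The GC content was 64.8% in Ucp1, 62.4% in Prdm16, 47.2% in Cox8b and 41.6% in Dio2, beside a median of 52% over all promoters. None of the 6 motifs stood in all 8 promoters.

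Effectors were lower in libraries labelled SFRP2-siRNA, whereas of the regulators Prdm16 overlapped between the groups and Zic1 was higher. For 7 of the 8 effectors every NC library lay above every library labelled SFRP2-siRNA, and the other one, Dio2, overlapped. Groups apart in this direction were found for 3.92% of the 16005 genes tested, and 13.9% were apart in the other direction. These values chose the genes, so nothing is read from that count. The median difference, SFRP2-siRNA minus NC on the log2(FPKM + 1) scale, was -1.56 over the 8 effectors and -0.02 over the 2 regulators, beside 0.125 over all genes tested. SFRP2-siRNA 1, the library that stood apart, was the highest of its group for 7 of the 8 effectors. Without it the differences were -4.37 for Ucp1, -2.76 for Cidea, -2.68 for Otop1, -1.87 for Letmd1, -1.69 for Cox8b, -1.53 for Cox7a1, -1.48 for Kcnk3 and -0.63 for Dio2. Those of Prdm16 and Zic1 were -0.50 and 0.28. The regulator median changed sign between processing alternatives, from -0.15 to 0.08. With limma, 0 of the 16005 genes had an adjusted p under 0.05, and 1533 (9.58%) had an unadjusted p under 0.05 (458 lower, 1075 higher). With a log2 difference past 1 as well, 0.637% of all genes were lower and 0.256% higher.

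**Figure D1:**
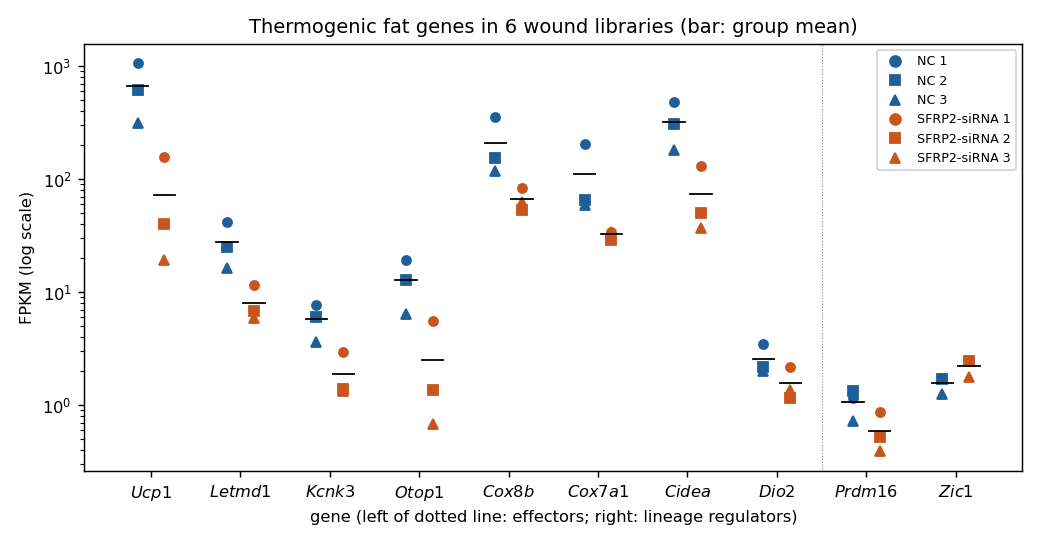
FPKM (log scale) of the 10 genes in each library, with NC in blue, SFRP2-siRNA in orange, symbols for replicates 1 to 3 and bars for group means (n = 3). Ucp1 spans 19.1 to 1061 FPKM, with the groups apart, whereas the groups overlap for Dio2 and Prdm16 and Zic1 lies higher in the libraries labelled SFRP2-siRNA.

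Ucp1 stood at 1061, 615 and 314 FPKM in NC 1, 2 and 3, and at 157, 39.9 and 19.1 FPKM in SFRP2-siRNA 1, 2 and 3. The lowest NC library was 2.01 times the highest library labelled SFRP2-siRNA, and the highest of all 6 was 55.5 times the lowest. Averages were 664 ± 376 and 71.9 ± 74.1 FPKM (SD, n = 3 each), a ratio of 9.23. The log2 difference was -3.55 (SE 0.79), and 0 of the 16005 genes tested had a lower one. By level, Ucp1 ranked 31st, 49th and 125th among the genes of NC 1, 2 and 3, and 267th, 1335th and 2779th in SFRP2-siRNA 1, 2 and 3. The libraries within each group also differed, by 3.37 times in NC and 8.19 times in the other group. At the lowest, in SFRP2-siRNA 3, the value still rested on 1474 reads.

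Letmd1, a mitochondrial inner membrane protein needed for brown fat heat production, had 41.5, 24.9 and 16.5 FPKM in NC 1, 2 and 3. The values in SFRP2-siRNA 1, 2 and 3 were 11.6, 6.80 and 5.90 FPKM. The groups did not overlap, and the order of libraries was that of Ucp1. Group averages were 27.6 ± 12.7 and 8.10 ± 3.07 FPKM (SD, n = 3 each), with a log2 difference of -1.61 (SE 0.37).

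Cidea, a lipid droplet protein of brown and beige adipocytes, was the second most abundant effector in NC. Its values were 482, 311 and 180 FPKM in NC 1, 2 and 3, and 132, 50.7 and 37.3 FPKM in SFRP2-siRNA 1, 2 and 3. Every NC library was again above the other group, with a gap of 1.36 times between the closest libraries. Group averages were 324 ± 151 and 73.4 ± 51.4 FPKM (SD, n = 3 each), a log2 difference of -2.23 (SE 0.54).

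The membrane channels were far less abundant. Otop1 encodes a proton channel of the cell membrane that brown fat expresses. Its values were 19.2, 12.8 and 6.39 FPKM in NC 1, 2 and 3, and 5.56, 1.36 and 0.68 FPKM in SFRP2-siRNA 1, 2 and 3. SFRP2-siRNA 1 lay close under NC 3, and the other pair was lower still. The log2 difference was -2.10 (SE 0.57). Kcnk3 encodes TASK-1, a potassium channel that sets the membrane potential. It had 7.71, 6.01 and 3.65 FPKM in NC 1, 2 and 3, and 2.95, 1.40 and 1.33 FPKM in SFRP2-siRNA 1, 2 and 3, again without overlap. Its log2 difference was -1.23 (SE 0.30). Kcnk3 shares 229 bases of exon with Gm9899 on the other strand, and the strand setting of the counting is not given in the sources used here.

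Cox8b and Cox7a1 encode subunits of respiratory complex IV that replace their widely expressed isoforms in muscle and brown fat. Cox8b had 359, 156 and 119 FPKM in NC 1, 2 and 3, and 83.3, 53.4 and 62.4 FPKM in SFRP2-siRNA 1, 2 and 3. Cox7a1 had 206, 65.7 and 59.4 FPKM in NC, against 34.4, 28.8 and 34.4 FPKM in the other group. Both stood out in NC 1, and within the other group they varied by 1.56 and 1.19 times, where Ucp1 varied by 8.19 times. Their log2 differences were -1.51 (SE 0.42) and -1.49 (SE 0.46). Without NC 1, which also had the highest mitochondrially encoded share, they were -1.05 and -0.93. The part of that share in the result was not tested.

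Dio2 had 3.46, 2.17 and 2.02 FPKM in NC 1, 2 and 3, and 2.18, 1.16 and 1.37 FPKM in SFRP2-siRNA 1, 2 and 3. SFRP2-siRNA 1 lay among the NC libraries, so the groups overlapped. Group averages were 2.55 ± 0.79 and 1.57 ± 0.54 FPKM (SD, n = 3 each), a log2 difference of -0.47 (SE 0.21). Of the effectors, it had the smallest difference and the lowest level in NC.

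The regulators had levels near those of Dio2, and Prdm16 had a difference close to that of Dio2, whereas Zic1 differed in the other direction. Prdm16 had 1.16, 1.33 and 0.73 FPKM in NC 1, 2 and 3, and 0.87, 0.53 and 0.39 FPKM in SFRP2-siRNA 1, 2 and 3. NC 3 lay under SFRP2-siRNA 1, so the groups overlapped, with means of 1.07 ± 0.31 and 0.60 ± 0.25 FPKM (SD, n = 3 each). The log2 difference was -0.38 (SE 0.17), and -0.77 with a pseudocount of 0.1 in place of 1, since the larger pseudocount shrinks low values. Zic1 had 1.74, 1.70 and 1.26 FPKM in NC 1, 2 and 3, and 2.45, 2.47 and 1.77 FPKM in SFRP2-siRNA 1, 2 and 3. The libraries labelled SFRP2-siRNA were all above NC, by the narrow gap between 1.77 and 1.74 FPKM. Group averages were 1.57 ± 0.27 and 2.23 ± 0.40 FPKM (SD, n = 3 each), a log2 difference of 0.33 (SE 0.15) that is to be read beside the 0.125 of all genes. Zic1 rested on 328 to 636 reads a library and Prdm16 on 171 to 583. On the other strand, Zic1 shares 60 bases of exon with Zic4, Prdm16 shares 109 with B230104I21Rik and Dio2 shares 100 with Gm26512.

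**Figure D2:**
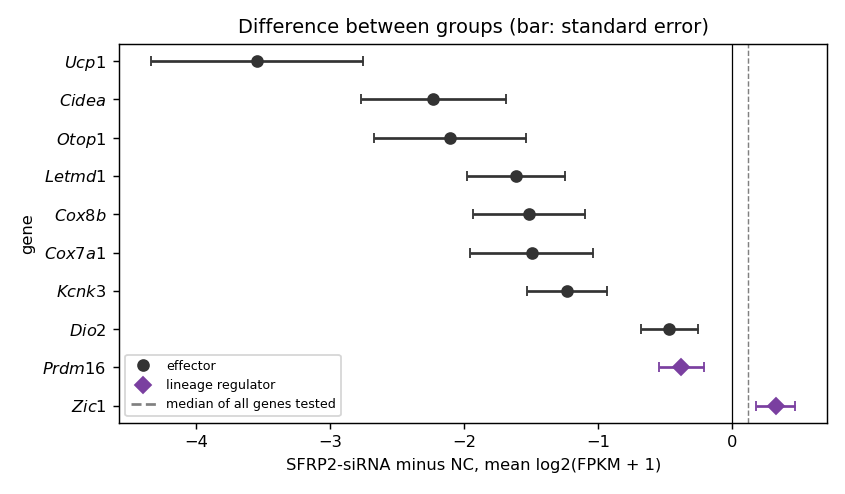
Difference in mean log2(FPKM + 1) between the groups (SFRP2-siRNA minus NC) for each gene, with its standard error, effectors as circles and regulators as diamonds. The effectors run from -3.55 (Ucp1) to -0.47 (Dio2), Prdm16 lies at -0.38 and Zic1 at 0.33, to the right of the median of all genes (dashed, 0.125).

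NC 1 was the highest library for 8 of 8 effectors. The full order of Ucp1, NC 1 over NC 2, NC 3, SFRP2-siRNA 1, SFRP2-siRNA 2 and SFRP2-siRNA 3, was shared by 5 of the 7 effectors with the groups apart, Ucp1 included. Of all 628 genes tested with NC above the other group, 116 (18.5%) had it. The order includes the group difference that chose the genes, so this too is a description. Over the 6 libraries, Pearson's r of log2(FPKM + 1) was 0.826 to 0.998 among the 28 pairs of effectors. Prdm16 had r of 0.677 to 0.947 with the effectors, and Zic1 had -0.474 to -0.322. These 6 points share the difference between the groups, so r is given as a description. With Ucp1, r was lowest for Cox7a1 (0.826) among the effectors and highest for Cidea (0.997).

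**Figure D3:**
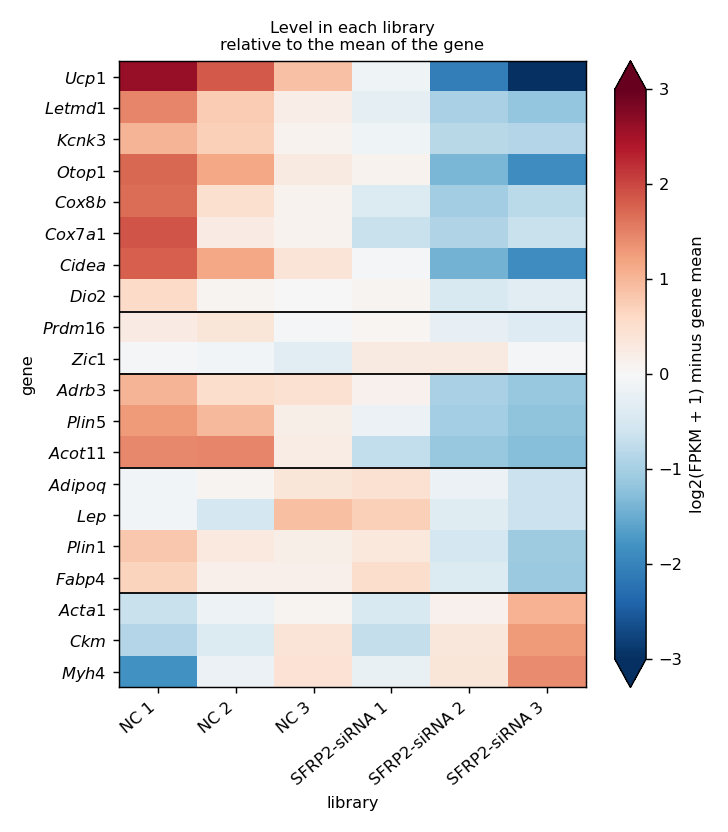
log2(FPKM + 1) in each library minus the mean of the gene, for the 8 effectors, the 2 regulators, 3 further brown fat genes, 4 adipocyte genes and 3 skeletal muscle genes, with lines between these sets. For 5 of the 8 effectors the colours step down from NC 1 to SFRP2-siRNA 3, while Adipoq and Lep are highest in NC 3 or SFRP2-siRNA 1 and the muscle genes are highest in SFRP2-siRNA 3.

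Outside the members, the genes with the pattern most like that of Ucp1 were Lctl, C1qtnf9, Aacs, Scd1 and Aldh1a7, with r of 0.995 to 1.000 over the 6 libraries. Lctl, a klotho-family protein, had 35.5, 25.9 and 16.9 FPKM in NC 1, 2 and 3, and 10.8, 4.31 and 2.35 FPKM in SFRP2-siRNA 1, 2 and 3. Scd1, the enzyme that makes monounsaturated fatty acids, had 6830, 4659 and 2980 FPKM in NC, and 2488, 1009 and 607 FPKM in the other group. Both had the full library order of Ucp1. They were picked by r with Ucp1, which includes the group difference that chose it, so this is a description. In all, 154 of 15881 genes (0.970%) had r above 0.95 with Ucp1. For Zic1 the count was 45 genes, led by Mir142b, Selenon, Catip, Slc11a1 and Cd80, with r of 0.981 to 0.990. Slc11a1, a metal transporter of macrophage phagosomes, had 17.0, 19.9 and 12.1 FPKM in NC 1, 2 and 3, and 41.1, 39.2 and 19.1 FPKM in SFRP2-siRNA 1, 2 and 3. Mir142b is a short microRNA gene, and reads of an overlapping transcript cannot be told apart from its own.

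Adipocyte markers tended lower too, with a median nearer 0 than the values of 7 of the 8 effectors. All 14 markers in the table were tested, of which 13 had a difference under 0, with a median of -0.74. The median was -0.40 without SFRP2-siRNA 3 and -0.97 without SFRP2-siRNA 1. With limma, 3 were lower at an unadjusted p under 0.05, where 2.86% of all genes were, and 0 passed adjustment. Gpd1, which makes the glycerol backbone of stored fat, had 752 ± 349 FPKM in NC and 176 ± 69.6 FPKM in the other group (SD, n = 3 each), without overlap. Its log2 difference of -2.06 was near that of Otop1 and beyond those of 5 effectors. Slc2a4, the insulin-responsive glucose transporter, had -0.95 with the groups apart, and the lipase Lipe had -1.02 with overlap. The summed marker level was 2822 to 3989 FPKM in NC and 1223 to 3127 FPKM in the other group, and none of the markers was at 0 in any library. Adipoq, the adipocyte hormone adiponectin, had 196, 218 and 268 FPKM in NC 1, 2 and 3, and 287, 185 and 132 FPKM in SFRP2-siRNA 1, 2 and 3. Its groups overlapped, and its log2 difference was -0.24. The differences of Lep (leptin) and Plin1 (the lipid droplet coat perilipin) were -0.19 and -0.86, and Fabp4, the adipocyte fatty acid binding protein, had -0.65.

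Set against Adipoq in the same library, Ucp1 also had the groups apart. The members were chosen by their own differences and Adipoq differed by -0.24, so these ratios are a description. The ratio of Ucp1 to Adipoq was 5.40, 2.82 and 1.17 in NC 1, 2 and 3, and 0.545, 0.215 and 0.145 in SFRP2-siRNA 1, 2 and 3. Against Plin1 it was 9.23, 7.69 and 4.23 in NC, and 1.93, 0.894 and 0.626 in the other group. Cidea to Adipoq was 2.45, 1.42 and 0.671 in NC, and 0.460, 0.274 and 0.283 in the libraries labelled SFRP2-siRNA. Neither gene overlapped between groups on these ratios. The ratios to Adipoq overlapped for 3 of the 8 effectors, Cox8b, Cox7a1 and Dio2. For Cox8b SFRP2-siRNA 3 had 0.473 and NC 3 had 0.442, and for Cox7a1 these libraries had 0.261 and 0.222. Relative to the median of the adipocyte markers, log2 differences were -2.80 for Ucp1, -1.49 for Cidea, -1.36 for Otop1 and -0.87 for Letmd1. They were -0.77 for Cox8b, -0.75 for Cox7a1 and -0.49 for Kcnk3. Dio2, Prdm16 and Zic1 lay above that median, by 0.28, 0.37 and 1.07. For Dio2 this sign turned without SFRP2-siRNA 3 (-0.016), and for Prdm16 with a pseudocount of 0.1 (-0.014). The markers were spread widely around their median, from -2.06 (Gpd1) to 0.007 (Retn). Dio2 and Prdm16 had lower differences than Adipoq, Lep, Retn, Cfd (-0.11), Plin4 (-0.04) and Cidec (-0.16).

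The effectors were not lower in one fixed proportion. The ratio of Cidea to Ucp1 was 0.454, 0.506 and 0.572 in NC 1, 2 and 3, and 0.844, 1.27 and 1.95 in SFRP2-siRNA 1, 2 and 3. The groups did not overlap, and Cidea was the more abundant of the pair in SFRP2-siRNA 2 and 3 only. The ratio of Ucp1 to Zic1 was 611, 362 and 250 in NC 1, 2 and 3, and 64.0, 16.2 and 10.8 in SFRP2-siRNA 1, 2 and 3.

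The 2 complex IV isoforms among the members, Cox8b and Cox7a1, took a smaller share beside their paralogs. The members were chosen by their own differences, so the shares of Cox8b, Cox7a1 and Ucp1 are a description. Cox8b made up 24.0%, 23.0% and 18.6% of the summed FPKM of Cox8a and Cox8b in NC 1, 2 and 3, and 15.1%, 12.9% and 15.9% in SFRP2-siRNA 1, 2 and 3. Cox7a1 made up 70.3%, 50.5% and 46.4% of Cox7a1 and Cox7a2 in NC, and 34.1%, 36.6% and 41.2% in the other group. Neither share overlapped between the groups. Cox6a2, the isoform of muscle and brown fat for another subunit, went otherwise. It made up 17.5%, 25.7% and 30.6% of Cox6a1 and Cox6a2 in NC, and 18.8%, 46.4% and 52.5% in SFRP2-siRNA 1, 2 and 3, with overlap. Among uncoupling proteins, Ucp1 made up 90.1%, 83.6% and 70.9% of the summed FPKM of Ucp1, Ucp2 and Ucp3 in NC, and 68.6%, 29.8% and 14.6% in the other group.

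**Figure D4:**
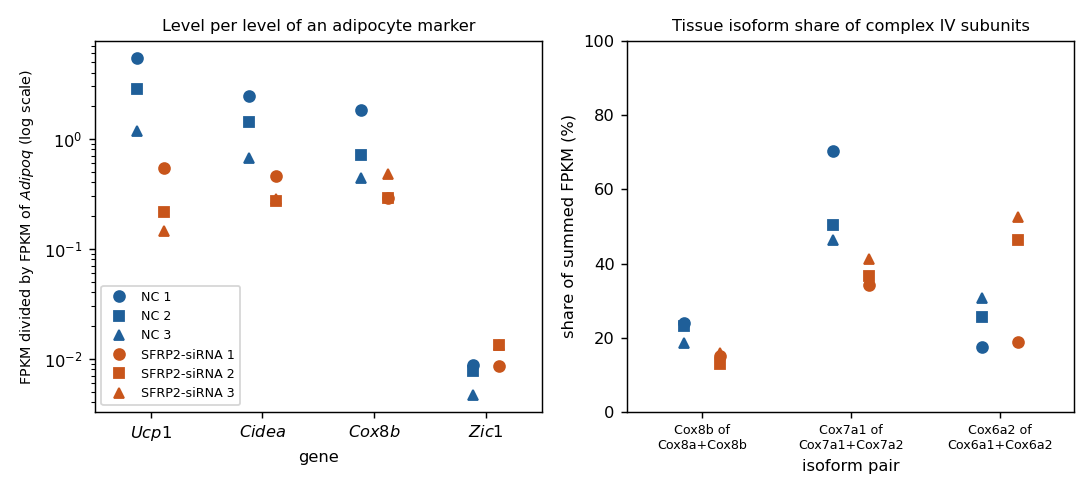
Left, FPKM of 4 members divided by the FPKM of Adipoq in the same library (log scale). Right, percent of summed FPKM taken by Cox8b, Cox7a1 and Cox6a2 beside their paralogs. Points are libraries, blue for NC and orange for SFRP2-siRNA. Ucp1 and Cidea separate the groups per Adipoq, Cox8b and Zic1 overlap, and the Cox8b and Cox7a1 shares are lower in every library labelled SFRP2-siRNA.

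Skeletal muscle also expresses Cox8b and Cox7a1. Of its 14 markers 13 were tested, 12 of them with a difference above 0, a median of 0.67 and 0 with an unadjusted limma p under 0.05. That median was 0.28 without SFRP2-siRNA 3, 0.33 without NC 1 and 1.09 without SFRP2-siRNA 1. The summed level was 4002 to 7826 FPKM in NC and 5120 to 14673 FPKM in the other group, with none at 0 in any library. Acta1, Ckm and Myh4, genes of the contractile fibre, had differences of 0.49, 0.62 and 1.04, opposite in sign to those of these subunits, and their groups overlapped. Mb (myoglobin) was the 1 marker under 0, at -0.23, also with overlap. Sebaceous gland markers, which include Elovl3, a fatty acid elongase of brown fat and skin, had a median of 0.14 over 12 genes, with 0 at an unadjusted p under 0.05. It ran from -0.05 (without SFRP2-siRNA 1) to 0.27 (without NC 3) on leaving out 1 library. Their summed level was 567 to 806 FPKM and 481 to 666 FPKM. Elovl3 and Scd3 had differences of -0.06 and 0.18. Keratinocyte markers had a median of -0.17 over 10 genes, with 1 lower at an unadjusted p under 0.05 and summed levels of 3884 to 6509 FPKM and 3450 to 6848 FPKM. That median ran from -0.48 (without SFRP2-siRNA 2) to 0.054 (without NC 3). Fibroblast and macrophage markers had differences opposite in sign to those of the effectors. All 10 fibroblast markers had a difference above 0 (median 0.74, 9 with an unadjusted limma p under 0.05), with summed levels of 942 to 2079 FPKM in NC and 2283 to 2366 FPKM in the other group. All 10 macrophage markers did so as well (median 0.77, 7 with an unadjusted limma p under 0.05), with 976 to 1599 FPKM and 1776 to 2407 FPKM. None of these markers was at 0 in any library. Over all genes tested, 2.86% were lower and 6.72% higher at an unadjusted limma p under 0.05. The part of these tissues in the members' differences was not tested.

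Other markers of thermogenic fat were lower for the most part, and its other regulators were mixed. Of 25 brown and beige fat markers outside the members 22 were tested, with a median of -0.48. Groups were apart with NC above for 7 of them (31.8%) and with NC below for 1 (4.55%), where 3.92% and 13.9% of all genes were. At an unadjusted limma p under 0.05, 9 were lower and 0 higher, where 2.86% and 6.72% of all genes were. The 5 with the smallest p were Acot11, P2rx5, Slc36a2, Plin5 and Adrb3. Acot11, an acyl-CoA thioesterase, had 10.6 ± 4.75 FPKM in NC and 1.55 ± 0.52 FPKM in the other group (SD, n = 3 each), a difference of -2.10. The purine receptor P2rx5 and the amino acid transporter Slc36a2, both surface markers of brown and beige adipocytes, had -1.37 and -1.82. Plin5, the perilipin of lipid-burning cells, had -1.61. All had an adjusted p of 0.518. The list also held Ppargc1a at -0.37, and without SFRP2-siRNA 1 the list median was -0.24. Of the 22, 16 had a difference under 0 and 6 above 0. Those above included Epsti1 (0.67), Hspb7 (0.38), Tnfrsf9 (0.38) and Tmem26 (0.24). Tmem26 was the 1 with NC below.

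Of 20 further regulators of the lineage 19 were tested, with a median of -0.02. Groups were apart for 3 (15.8%) with NC above and for 4 (21.1%) with NC below, where 3.92% and 13.9% of all genes were. Ppara and Ppargc1b, which promote fat oxidation and mitochondrial genes, were lower at an unadjusted limma p under 0.05, with -0.73 and -0.44. They were 2 of the 19, with 0 higher, where 2.86% of all genes were lower and 6.72% higher. Pparg, the master regulator of adipocytes, had -0.83 and Ebf2, a selector of the brown fate, had -0.29, and the groups overlapped for both. Tbx15 had 0.48, with the groups apart. This median depended on the scaling, from -0.17 to 0.07.

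**Figure D5:**
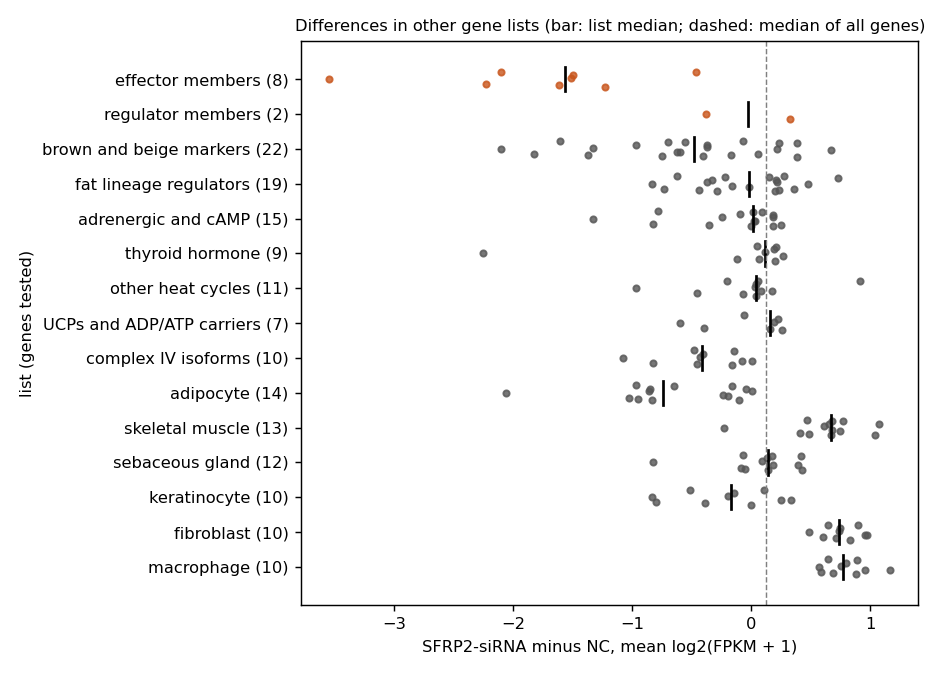
Difference between the groups (SFRP2-siRNA minus NC, log2 scale) of each gene tested in 15 lists, the 2 sets of members in orange and other lists in grey, with a bar at each list's median. The effectors have the lowest median (-1.56), but they were chosen with this difference known, so their place is a description. Brown and beige markers lie at -0.48 and adipocyte markers at -0.74. Most other fat lists lie near the dashed median of all genes (0.125), and fibroblast, macrophage and muscle markers lie above it.

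Some genes of the adrenergic, cAMP and thyroid hormone lists were lower, although the medians of these lists were near that of all genes. The lists hold receptors, other signalling genes and responsive genes, and signalling itself was not measured. Of 15 adrenergic and cAMP genes, all tested, the median was 0.02, and 3 (20%) were lower and 0 higher at an unadjusted limma p under 0.05, where 2.86% of all genes were lower. Groups were apart with NC above for 3 (20%) and with NC below for 2 (13.3%), where 3.92% and 13.9% of all genes were. The 3 lower ones were the receptors Adrb3 (-1.33) and Adrb1 (-0.78) and the protein kinase A subunit Prkar2b (-0.82). Of these, Adrb3 is also counted among the brown and beige markers. Adrb3, the main receptor of noradrenaline on fat cells, had 6.72 ± 1.71 and 2.28 ± 1.72 FPKM (SD, n = 3 each), without overlap. Of 10 thyroid hormone genes 9 were tested, with a median of 0.12. Thrsp, a thyroid hormone responsive gene of lipid synthesis, was the single one (11.1%) at an unadjusted p under 0.05, with 470 ± 158 FPKM in NC and a difference of -2.25. Dio3, which inactivates the hormone that Dio2 makes, had 0.05.

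Genes of other energy-spending cycles were mixed. Of 12 genes of creatine, calcium and lipid cycles 11 were tested, with a median of 0.04. Alpl, a phosphatase of the creatine cycle, was lower (-0.45) and Gatm, an enzyme of creatine synthesis, was higher (0.92) at an unadjusted limma p under 0.05. Each was the single one of the 11 in its direction. Over all genes tested, 2.86% were lower and 6.72% higher at this threshold, for this list and those below. The 7 paralogs of the uncoupling family and the ADP/ATP carriers had a median of 0.16, with Ucp3 at -0.60 and Ucp2 at -0.39, both with overlap. Ucp3, also one of the brown and beige markers, was the single one of the 7 with an unadjusted limma p under 0.05. Of 11 complex IV isoforms outside the members 10 were tested, with a median of -0.42. Cox6a1 (-1.08) was lower at an unadjusted p under 0.05. Cox8a, Cox4i1, Cox7a2 and Cox6a2 had -0.82, -0.45, -0.41 and -0.16. Of the 10, 9 had a difference under 0. Groups were apart with NC above for 3 (30%), Cox6a1, Cox8a and Cox4i1, and with NC below for 0. Over all genes tested these shares were 3.92% and 13.9%. With median-of-ratios scaling, the medians of the adrenergic, thyroid hormone and energy cycle lists were under 0, at -0.11, -0.04 and -0.12. After adjustment over all 16005 genes, 0 genes of any list passed with limma.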

How the data were processed

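Transcript levels were measured by paired-end mRNA sequencing of 6 skin wound libraries from db/db mice, grouped by their titles. The authors deposited 1 table of FPKM values for 33184 gene IDs. HISAT2, featureCounts and Subread are named in the submitters' processing notes, without versions, and the genome build, annotation and strand setting are not given in the sources used here. FPKM scales each library to its own total, so a few abundant transcripts, such as the mitochondrially encoded ones, can shift all others. A gene name table matched 32582 of the IDs. With exon lengths from GENCODE vM21, 98.6% to 98.8% of low values were whole reads, which gave the read totals. These cover counting error only.

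Values were analysed as log2(FPKM + 1), a scale that understates the differences of low genes. The 16005 genes averaging at least 0.5 FPKM were fitted with limma 3.58.1 in R 4.3.3 (group only, intensity trend, two-sided, Benjamini-Hochberg), a fit tested on simulated data. The authors' DESeq2 test needs counts, so limma was used with their thresholds, an adjusted p under 0.05 and an absolute log2 difference above 1. The members, lists, naming rule and alternatives were chosen with earlier results of these data known. Some genes stand in several lists, such as Adrb3, Ucp3, Pparg, Ppargc1a and Elovl3, so the counts of these lists share genes. Named genes were the members, Sfrp2, the 5 genes most correlated with Ucp1 and the 5 with Zic1, up to 5 of each list by unadjusted p, and a fixed set of isoforms and tissue markers. No test was run on the members. Promoters came from a RefSeq table. Alternatives were another pseudocount (0.1), no filter or one at 2 FPKM, 4 other scalings, no intensity trend, a replicate block and leaving out each library.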

Additional observations from a re-analysis of the deposited data

How the results depend on the processing

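Each member kept the sign of its difference under 15 alternatives, or 14 for Prdm16 and Zic1, which a filter at 2 FPKM removes. The log2 difference ran from -4.37 to -2.88 for Ucp1, -2.76 to -1.86 for Cidea, -2.68 to -1.69 for Otop1, -1.92 to -1.28 for Letmd1, -1.59 to -1.02 for Kcnk3, -0.68 to -0.29 for Dio2, -0.77 to -0.28 for Prdm16 and 0.22 to 0.48 for Zic1. The median of the 8 effectors ran from -1.88 to -1.16, lowest without NC 3 and highest without NC 1, and that of the 2 regulators from -0.15 to 0.077. No gene passed the adjusted threshold under any of them, the smallest adjusted limma p being 0.157, without SFRP2-siRNA 1.

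The scaling shifts all genes: their median was 0.125 as deposited and -7.69568e-05 with median-of-ratios scaling. Genes at an unadjusted p under 0.05 and a log2 difference under -1 numbered 102, and 170 with a pseudocount of 0.1, 159 under median-of-ratios scaling and 78 to 177 without one library (162 without NC 3, 177 without SFRP2-siRNA 1). Those above 1 numbered 41, and 137 with a pseudocount of 0.1, 88 after rescaling to equal sums, 24 when this left out mitochondrially encoded genes, 22 with quantile normalization, 18 under median-of-ratios scaling and 26 to 229 without one library (26 without NC 1, 229 without NC 2, 165 without SFRP2-siRNA 1, 203 without SFRP2-siRNA 3). The median of the lineage regulators was 0.17 at 2 FPKM, 0.072 with equal sums, -0.12 with these sums but without mitochondrially encoded genes, -0.13 with quantile normalization, -0.17 under median-of-ratios scaling and -0.15 (without NC 1) to 0.059 without one library. That of the brown and beige markers was -0.61 with a pseudocount of 0.1, -0.60 with median-of-ratios scaling and -0.51 to -0.24 without one library. With median-of-ratios scaling the median was -0.12 for the other energy cycles, -0.11 for adrenergic genes (-0.10 with quantile normalization) and -0.037 for thyroid hormone genes (0.0027 with quantile normalization). Without one library it was -0.11 (without NC 1) to 0.068 for the energy cycles and -0.036 (without SFRP2-siRNA 3) to 0.23 for the uncoupling paralogs. Causes were not tested.

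Deviations from the group mean were correlated at -0.05, -0.15 and 0.38 between libraries of the same number. Between libraries of other numbers they ran from -0.36 to 0.32. With so few libraries this cannot settle whether the numbers pair them, and the main fit used group only. With the replicate block, 0 genes passed adjustment (smallest p 0.193), and 122 and 46 genes were past -1 and 1 at an unadjusted p under 0.05.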
